A study of Mus musculus with 4 samples.

Results

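Fn1, the mouse gene for fibronectin, was followed through its 10 transcripts in an RPKM table of 63759 transcripts of the UCSC known genes. RPKM is the number of reads on a transcript for each kilobase of its length, scaled to library depth. The members are all rows of the table that lie on the minus strand of chr1 from 71585473 to 71653234 (mm10) and overlap Fn1 of GENCODE vM21 by at least 50% of their span, with their RPKM in all 4 libraries and their lengths. The libraries were made from total RNA of mouse embryonic fibroblasts (MEF), grown from C57BL/6 embryos of embryonic day 15.5 and immortalized. SV40 was used for this according to the methods. The Hmga2+/+ Ctrl and Hmga2+/+ TGFB1 libraries came from wild type cells, and the Hmga2-/- Ctrl and Hmga2-/- TGFB1 libraries from cells lacking Hmga2, whose genotype the labels spell Hmga-/-. MEF were starved overnight in 1% FCS, and the TGFB1 libraries were made after 24 h with 10 ng/ml human recombinant TGFB1, the cytokine that drives matrix production in fibroblasts. The Ctrl cells received water according to the methods. The labels and methods do not give the number of embryos or cell lines behind each genotype. Each condition had 1 library, so the spread between cultures is unknown and no difference was tested. Because these are bulk libraries of RNA, fewer cells of a kind and less RNA per cell cannot be told apart.

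Fibronectin is a large secreted glycoprotein built from repeated modules of types I, II and III, and fibroblasts assemble it into fibrils on which collagens and other matrix proteins are laid down. Cells bind it through integrins, above all the dimer of the subunits encoded by Itga5 and Itgb1. A single gene gives many forms by alternative splicing, through the extra type III exons EDB and EDA and the variable region V, of which a part or the whole can be skipped. Plasma fibronectin, made by hepatocytes, lacks EDA and EDB, whereas fibroblasts make cellular forms that can hold them, and TGFB1 is a textbook inducer of Fn1.

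All 10 transcripts matched an exon structure of GENCODE vM21, which is built on the same assembly as mm10. Of these, 7 ran from the first to the last base of the gene and were taken as full-length. They differed by 4 segments only. EDB is exon 25 of the longest structure (chr1:71613763-71614035, 273 bases) and was held by 1 of the 7 transcripts. EDA is exon 33 (chr1:71603660-71603929, 270 bases) and was held by 4. The V region is the 5′ portion of exon 40 and fell into a 5′ part (chr1:71597673-71597747, 75 bases), held by 3 transcripts, and a 3′ part (chr1:71597388-71597672, 285 bases), held by 5. All 4 segments are coding, on the minus strand and a whole number of codons long, namely 91, 90, 25 and 95 codons, so that each can be skipped without a change of reading frame. EDB and EDA are shown because plasma fibronectin lacks them, and the 5′ part of V because it carries an integrin binding site. They were read 5′ to 3′ from the GENCODE vM21 transcript of the longest structure. The capitals mark TTGGATGTT, in reading frame the codons of leucine, aspartate and valine, which form the best known binding site for the integrin with the subunit Itga4.
EDB: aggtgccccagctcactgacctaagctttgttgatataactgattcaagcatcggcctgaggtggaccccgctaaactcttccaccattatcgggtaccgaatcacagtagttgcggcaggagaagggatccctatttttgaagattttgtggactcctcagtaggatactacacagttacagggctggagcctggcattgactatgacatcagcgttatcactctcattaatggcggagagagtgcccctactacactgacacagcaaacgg
EDA: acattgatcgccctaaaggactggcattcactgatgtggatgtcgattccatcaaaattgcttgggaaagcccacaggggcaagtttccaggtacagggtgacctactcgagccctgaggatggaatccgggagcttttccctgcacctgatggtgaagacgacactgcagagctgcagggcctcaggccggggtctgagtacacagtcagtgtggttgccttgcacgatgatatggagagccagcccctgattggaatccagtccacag
V 5′ part: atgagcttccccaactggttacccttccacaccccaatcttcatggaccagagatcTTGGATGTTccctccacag
TTGGATGTT lies at bases 57 to 65 of the 5′ part of V. It was not found in the other 3 segments on either strand. Of 11419 internal coding-gene exons of 70 to 80 bases, 0.0175% hold it on the transcribed strand and 0.0613% on the opposite strand. With the bases of these segments in only some transcripts, 89.3% of the bases of the longest structure were common to all 7.

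**Figure D1:**
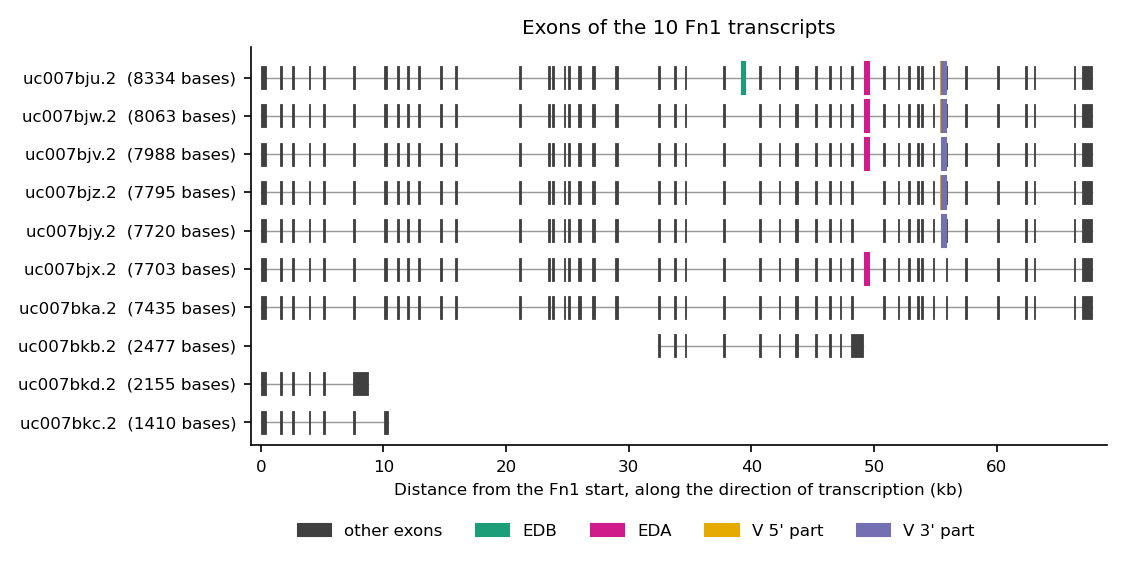
Exons of the 10 Fn1 transcripts, drawn to scale by distance in kb from the start of the gene (x axis), 1 line per transcript with its length in the table (y axis). Coloured boxes mark EDB, EDA and the parts of V, which are the only differences among the 7 full-length transcripts, and the other 3 transcripts cover the start or the middle of the gene.

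The remaining 3 transcripts were short. uc007bkc.2 (1410 bases) covers exons 1 to 7 and carries 135 bases that are intronic in the longest structure. uc007bkd.2 (2155 bases) covers exons 1 to 6 with 1070 intronic bases at its end. uc007bkb.2 (2477 bases) covers exons 21 to 32, skips EDB and ends in 860 intronic bases. Every exon they hold is thus shared, wholly or in part, with the full-length forms. The transcripts thus share most of their reads, although the counter did not count every shared read alike for each of them, as shown further on. The reads of the 10 rows summed to between 7.26 and 7.30 times those of the longest transcript alone, depending on the library. The rows are therefore overlapping views of largely the same reads, not 10 independent levels, and the longest transcript, uc007bju.2, stands for the gene in what follows.

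The libraries held 56140000 to 57300000 mapped reads, derived from the step that 1 read makes in low RPKM values. Hmga2, the targeted gene, was at 14.8 and 40.7 RPKM in the Hmga2+/+ Ctrl and TGFB1 libraries and at 0 reads in both Hmga2-/- libraries, as labelled. The summed level of 10 fibroblast markers ran from 1951 to 2354 RPKM over the 4 libraries. Vim alone gave 958 and 1119 RPKM of it in Hmga2+/+ Ctrl and TGFB1, and 1497 and 1390 RPKM in Hmga2-/- Ctrl and TGFB1. Of these markers 5 were at least 1.5-fold lower with TGFB1 in each genotype, beside 19.2% and 18.3% of all genes in Hmga2+/+ and Hmga2-/- MEF. Their median log2 ratios were -0.41 and -0.43, 1 and 2 markers were higher, and the part of this in the results was not tested. Of the marker sums of other cells, 5 epithelial markers gave 2.62 to 5.77 RPKM, 4 endothelial markers 3.89 to 8.14 RPKM, 4 blood cell markers 1.26 to 1.63 RPKM and 3 skeletal muscle markers 0 to 0.052 RPKM. The epithelial and endothelial sums were higher in both Hmga2-/- libraries than in both Hmga2+/+ libraries, and their part in the results was not tested. Only Krt19 of the epithelial and Kdr and Tek of the endothelial markers reached 1 RPKM in any library. In Ctrl, 2 epithelial markers were at least 1.5-fold higher in Hmga2-/- MEF and 2 lower, and 1 endothelial marker was higher and 1 lower. In TGFB1 these counts were 3 and 1, and 3 and 0. Of all genes, 8.36% were higher and 8.76% lower in Ctrl, and 9.30% and 8.20% in TGFB1. The 4 hepatocyte markers, Alb among them, were at 0 in every library.

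Fn1 was among the most abundant transcripts of these fibroblasts and was higher after TGFB1 in both genotypes. The longest transcript was at 465 RPKM in Hmga2+/+ Ctrl, 818 RPKM in Hmga2+/+ TGFB1, 404 RPKM in Hmga2-/- Ctrl and 769 RPKM in Hmga2-/- TGFB1. Both TGFB1 libraries lay above both Ctrl libraries, and within each treatment the Hmga2-/- library was the lower. These levels stand for 217665, 390462, 190458 and 364944 reads in the same order. Fn1 alone thus took 0.388% and 0.681% of all mapped reads in the Hmga2+/+ Ctrl and TGFB1 libraries and 0.336% and 0.641% in the Hmga2-/- Ctrl and TGFB1 libraries.

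The change with TGFB1 was 1.76-fold in Hmga2+/+ MEF, a log2 ratio of 0.81 (exact Clopper-Pearson 95% interval 0.81 to 0.82), and 1.90-fold in Hmga2-/- MEF, a log2 ratio of 0.93 (0.92 to 0.94). These intervals, like all intervals here, cover counting error only. Both ratios passed the 1.5-fold rule of the study's methods, as did 11.6% of 25731 genes in Hmga2+/+ and 12.8% in Hmga2-/- MEF in the same direction. Among the 11295 genes that reached 1 RPKM in any library, 92.5% had a lower log2 ratio than Fn1 in Hmga2+/+ MEF and 93.1% in Hmga2-/- MEF, so that Fn1 was in the upper range of the response in each genotype without being at its end.

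Between genotypes, the Hmga2-/- library had 0.868 times the Fn1 level of the Hmga2+/+ library in Ctrl (log2 ratio -0.20, interval -0.21 to -0.20) and 0.940 times in TGFB1 (log2 ratio -0.09, interval -0.10 to -0.08). Neither passed the 1.5-fold rule. In Ctrl, 8.76% of the 25731 genes were at least 1.5-fold lower, and in TGFB1 8.20% were. The log2 response to TGFB1 was larger by 0.12 in Hmga2-/- than in Hmga2+/+ MEF. This difference was 0.08 with libraries rescaled by the median ratio and 0.09 with upper-quartile scaling, and it was not tested. Thus the fold was slightly larger where the starting level was slightly lower, and the level reached with TGFB1 was not higher in Hmga2-/- MEF.

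By RPKM, which corrects for length, Fn1 ranked 17 of 25731 genes in the Hmga2+/+ Ctrl library, 13 in the Hmga2+/+ TGFB1 library, 23 in the Hmga2-/- Ctrl library and 14 in the Hmga2-/- TGFB1 library. In each library 1 of the genes ranked above it had a transcript under 200 bases. The order of the libraries by rank was that of their Fn1 levels. In Hmga2+/+ Ctrl its neighbours were Rpl26, a ribosomal protein gene, at 509 RPKM above it and H19, an imprinted noncoding RNA, at 431 RPKM below it. In Hmga2+/+ TGFB1 Fn1 lay between Malat1, a nuclear noncoding RNA, at 856 RPKM and Hsp90b1, a chaperone of the endoplasmic reticulum, at 755 RPKM. In Hmga2-/- Ctrl the neighbours were Hsp90ab1, a cytosolic chaperone, at 424 RPKM and Rplp1, a ribosomal protein gene, at 378 RPKM. In Hmga2-/- TGFB1 they were Malat1 at 778 RPKM and Bgn, the matrix proteoglycan biglycan, at 760 RPKM. With 1 library each, no pair of neighbours can be compared with the spread between cultures.

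The 7 full-length transcripts did not separate from each other. Within a library the highest of them exceeded the lowest by 7.08% to 8.30%. In all 4 libraries the highest was uc007bka.2 (7435 bases), which holds only the bases common to all 7, at 498, 877, 432 and 833 RPKM in Hmga2+/+ Ctrl, Hmga2+/+ TGFB1, Hmga2-/- Ctrl and Hmga2-/- TGFB1. The lowest was uc007bju.2, the only transcript with EDB. A transcript that adds bases with few reads gains length without gaining reads, so a lower RPKM of a longer form says that its added segments were less covered than the common bases. It does not measure the amount of that form. The log2 ratios with TGFB1 were as close, at 0.81 to 0.82 in Hmga2+/+ and 0.92 to 0.95 in Hmga2-/- MEF over the 7 transcripts.

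**Figure D2:**
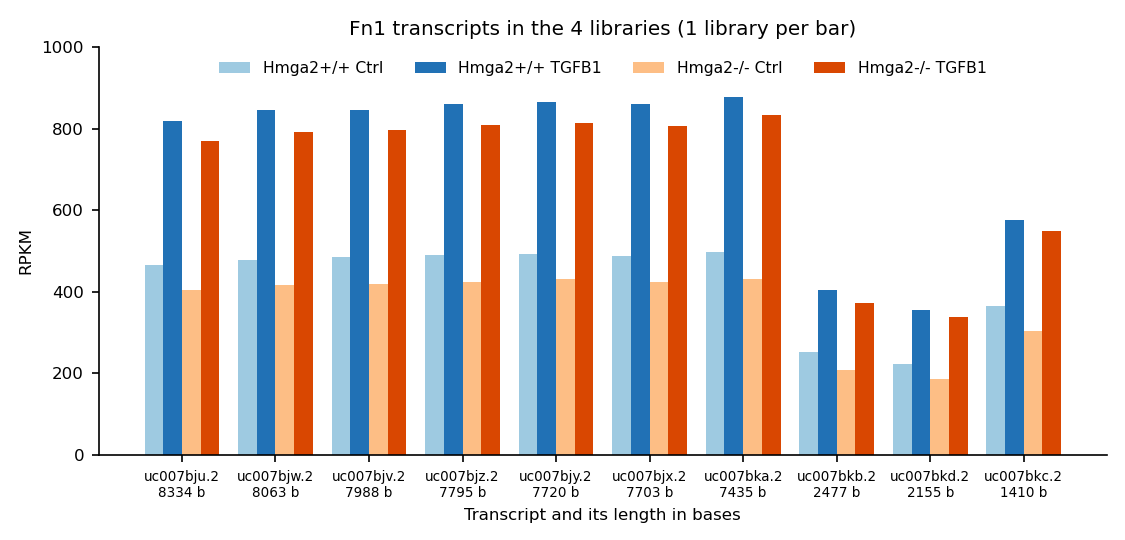
RPKM (y axis) of the 10 Fn1 transcripts (x axis, with lengths) in the 4 libraries, 1 bar per library. The 7 full-length transcripts on the left sit within 8.30% of each other in each library, the 3 short transcripts are lower, and the TGFB1 bars exceed the Ctrl bars of the same genotype throughout.

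The short transcripts were lower and changed less with TGFB1. uc007bkc.2, the start of the gene, was at 365, 576, 304 and 550 RPKM in Hmga2+/+ Ctrl, Hmga2+/+ TGFB1, Hmga2-/- Ctrl and Hmga2-/- TGFB1. uc007bkb.2, the middle of the gene, was at 252, 404, 207 and 372 RPKM in the same order. uc007bkd.2, whose last exon runs on into an intron, was at 223, 356, 186 and 338 RPKM. The libraries fell in the same order for all 3, and the same order held for the full-length transcripts. Of the pair that begin at the gene start, the one with 1070 intronic bases was lower in every library than the one with 135. Their log2 ratios with TGFB1 ran from 0.66 to 0.68 in Hmga2+/+ MEF and from 0.84 to 0.86 in Hmga2-/- MEF, below those of all 7 full-length transcripts.

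Since the start and the middle of the gene do not overlap, the reads of the longest transcript were divided into first exons (reads of uc007bkc.2), middle exons (reads of uc007bkb.2) and the rest. Reads on the intronic bases of the short transcripts could not be told from those on their exons and are counted with them, which lowers the rest by the same number. The first exons had 28883 and 46518 reads in Hmga2+/+ Ctrl and TGFB1, a 1.58-fold change, and 24246 and 44131 reads in Hmga2-/- Ctrl and TGFB1, a 1.81-fold change. The middle exons changed by 1.60-fold and 1.79-fold in Hmga2+/+ and Hmga2-/- MEF. The rest of the gene, which is exons 8 to 20, EDB and exons 33 to 46, changed by 1.83-fold and 1.94-fold. In Hmga2+/+ MEF the first exons thus held 13.3% of Fn1 reads in Ctrl and 11.9% in TGFB1, and in Hmga2-/- MEF 12.7% and 12.1%. The counting intervals of the first exons and of the rest did not overlap in either genotype, so the fold of Fn1 depended on the stretch of the gene by more than counting error.

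A like comparison was made in 416 other genes that have a short transcript at the start of the longest one. Where a gene had several, the longest of them was taken. For Fn1 the choice was unlike this, since uc007bkc.2 is shorter than uc007bkd.2 and has fewer intronic bases. The log2 ratio with TGFB1 was 0.66 for uc007bkc.2 and 0.68 for uc007bkd.2 in Hmga2+/+ MEF, and 0.86 for both in Hmga2-/- MEF. The place of Fn1 under the rule of the other genes was not computed. The change in log2 ratio of the short to the longest transcript with TGFB1 had a median of -0.04 in Hmga2+/+ MEF, and Fn1 was at -0.16, with 104 of the 416 genes below it. In Hmga2-/- MEF the median was -0.11 and Fn1 was at -0.07, with 243 genes below it. The median gene thus also had a lower share of reads at its start with TGFB1, by different amounts in the 2 pairs of libraries, and the part of this in the fold of Fn1 was not tested. Measured on the first exons alone, the genotype difference in the log2 response was 0.20 in place of 0.12.

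**Figure D3:**
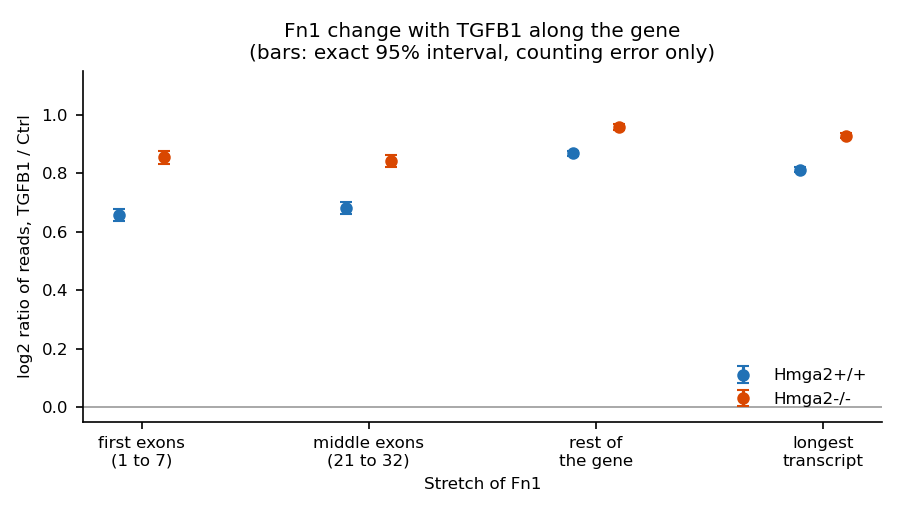
log2 ratio of reads, TGFB1 over Ctrl (y axis), for stretches of Fn1 and for the longest transcript (x axis) in Hmga2+/+ (blue) and Hmga2-/- (orange) MEF, with exact 95% intervals that cover counting error only. The first and middle exons changed less than the rest of the gene in both genotypes, from 0.66 and 0.68 to 0.87 in Hmga2+/+ and from 0.86 and 0.84 to 0.96 in Hmga2-/- MEF.

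The alternative segments were measured as the difference in reads between 2 full-length transcripts that differ by that segment alone. The density of these reads per base was set against that of the bases all 7 transcripts share, where 1 stands for a segment covered like the shared bases. EDA could be measured by 3 pairs of transcripts, each part of V by 2 and EDB by 1. The pairs reuse the same reads and are no replicates. EDA gave a mean density of 0.414 in Hmga2+/+ Ctrl (0.345 to 0.510 over the pairs), 0.439 in Hmga2+/+ TGFB1 (0.362 to 0.530), 0.282 in Hmga2-/- Ctrl (0.145 to 0.375) and 0.249 in Hmga2-/- TGFB1 (0.104 to 0.322). The exon was covered in every library, and less than the shared bases. The change of the mean with TGFB1 was smaller than the range over the pairs in both genotypes, so no change of EDA with TGFB1 was detectable. Both Hmga2-/- means lay below both Hmga2+/+ means, and the ranges overlapped between the Ctrl libraries and did not between the TGFB1 libraries. A single low pair pulled down each Hmga2-/- mean, 0.145 in Ctrl and 0.104 in TGFB1. The other pairs were at 0.325 and 0.375 in Hmga2-/- Ctrl and at 0.321 and 0.322 in Hmga2-/- TGFB1. The pair at 0.104 subtracts uc007bka.2, as does the pair with the lowest density of the 3′ part of V in that library.

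EDB rests on a single pair and gave densities of 0.116, 0.112 and 0.106 in Hmga2+/+ Ctrl, Hmga2-/- Ctrl and Hmga2-/- TGFB1, from 876, 744 and 1356 reads. The EDA pairs differed from each other by more than this in the same libraries, by 1236, 1506 and 2760 reads. These EDB densities can therefore not be told from 0. In Hmga2+/+ TGFB1 the subtraction gave -629 reads, that is, the transcript with EDB had fewer reads than the one without it, which cannot be if every read on a shared exon counts for both. The 3′ part of V had mean densities of 0.734, 0.614, 0.762 and 0.519 in Hmga2+/+ Ctrl, Hmga2+/+ TGFB1, Hmga2-/- Ctrl and Hmga2-/- TGFB1. In each genotype the mean was lower with TGFB1, and the ranges over the pairs, 0.676 to 0.792 against 0.584 to 0.643 in Hmga2+/+ and 0.654 to 0.870 against 0.417 to 0.621 in Hmga2-/- MEF, did not overlap. The pair uc007bjy.2 and uc007bka.2 moved little in Hmga2+/+ MEF, from 0.676 to 0.643. In Hmga2-/- MEF the pair uc007bjv.2 and uc007bjx.2 moved little, from 0.654 to 0.621. The fall of the mean thus came mostly from the other pair, not the same in each genotype, at 0.792 to 0.584 and 0.870 to 0.417. Because the pairs share reads, the difference in means was not tested. For the 5′ part of V, which carries the capitals above, the pairs disagreed in sign in both Ctrl libraries (-0.17 and 0.42 in Hmga2+/+, -0.28 and 0.36 in Hmga2-/-), and it gave no usable value.

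How far these densities can be trusted was checked on nested transcripts, where the shorter form is wholly inside the longer one. Over 18 such pairs in 4 libraries, 3 of 72 differences had the wrong sign, by up to 629 reads. For the same segment in the same library, the pairs differed by up to 2760 reads. Rounding of the RPKM to 3 decimals can move the longest transcript by at most 0.239 reads and cannot give such differences, which were also larger than counting error. How the counter assigned reads that cross splice junctions was not given in the sources used here, and its part was not tested. The mean density of EDA was below that of the 3′ part of V in every library. The table does not resolve differences in density as small as the ranges over the pairs, the difference between EDB and EDA in both Hmga2-/- libraries included.

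**Figure D4:**
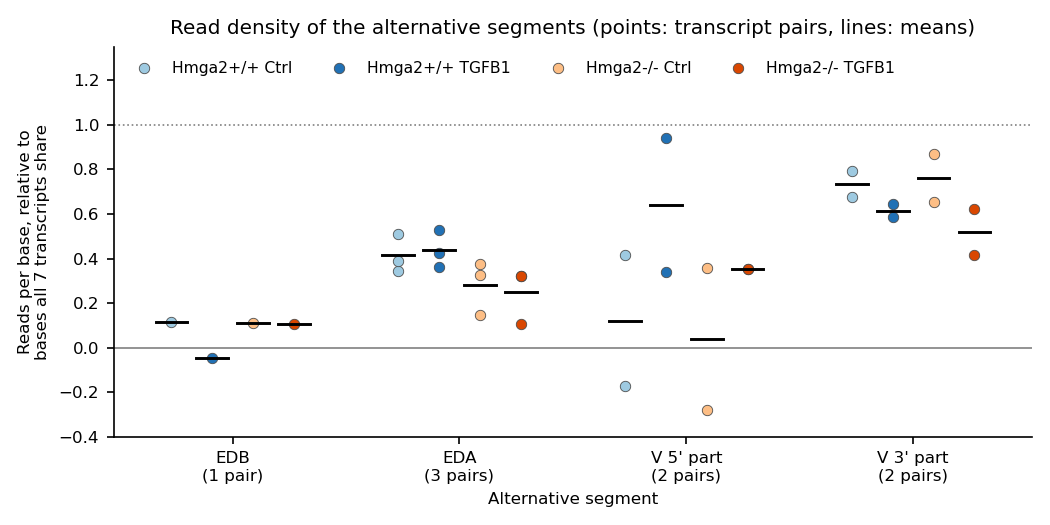
Read density of the 4 alternative segments relative to the bases that all 7 full-length transcripts share (y axis), by segment (x axis) and library (colour), each point a pair of transcripts and each line their mean. EDB lies between -0.05 and 0.12, the lower of which is a negative number of reads, EDA between 0.10 and 0.53, and the 3′ part of V between 0.42 and 0.87, and 2 of the EDA points in Hmga2-/- TGFB1 coincide at 0.32.

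On the opposite strand, 2 transcripts of the table overlap the start of Fn1. uc007bke.1 had 27, 27, 34 and 46 reads in Hmga2+/+ Ctrl, Hmga2+/+ TGFB1, Hmga2-/- Ctrl and Hmga2-/- TGFB1, and uc007bkf.1 had 3 to 7. Against 24246 reads or more on the first exons of Fn1 in each library, few reads were assigned to the other strand there, and the kit used is strand-specific.

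The fibronectin receptors were followed next, as 14 integrin subunits and syndecans. In Hmga2+/+ MEF 6 of them were at least 1.5-fold higher with TGFB1 and 2 lower, against 11.6% and 19.2% of all genes, with a median log2 ratio of 0.40 beside 0.00 over all genes. In Hmga2-/- MEF 7 were higher and 3 lower, against 12.8% and 18.3%, with a median of 0.66. Itgb6 and Itgb7, at 0.147 RPKM or less throughout, were the 2 below the fold in Hmga2+/+ MEF. Of the 10 receptors that reached 1 RPKM in any library, 6 were higher in each genotype, against 12.1% and 13.8% of genes at that level, with medians of 0.73 and 0.99, while 0 and 1 were lower, against 17.5% and 15.8%. Itgb1, the beta subunit shared by most fibronectin-binding integrins, was at 155 and 285 RPKM in Hmga2+/+ Ctrl and TGFB1 and at 160 and 340 RPKM in Hmga2-/- Ctrl and TGFB1, log2 ratios of 0.88 and 1.09. Itgav, the alpha subunit that pairs with several beta subunits, went from 27.5 to 60.2 RPKM in Hmga2+/+ MEF and, in Hmga2-/- MEF, 26.2 to 75.1 RPKM. Sdc2, a syndecan that binds fibronectin through heparan sulfate, was at 63.6 and 71.9 RPKM in Hmga2+/+ and at 70.3 and 69.1 RPKM in Hmga2-/- MEF. Itgb8, a subunit of an integrin that activates latent TGFB1, had the lowest ratio among receptors that reached 1 RPKM in both Hmga2+/+ libraries, from 4.50 to 3.89 RPKM in Hmga2+/+ MEF and, in Hmga2-/- MEF, 4.15 to 2.14 RPKM. The alpha subunits of the receptors named earlier were looked up after their values were seen. Itga5 went from 11.9 to 25.6 RPKM in Hmga2+/+ MEF and, in Hmga2-/- MEF, 11.9 to 35.6 RPKM, whereas Itga4, which reads the V site, was at 0.135 to 0.230 RPKM in the 4 libraries.

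Of 19 adaptors and signalling proteins at fibronectin adhesions, 2 were at least 1.5-fold higher and 2 lower in Hmga2+/+ MEF (median log2 ratio 0.06), and 3 were higher and 2 lower in Hmga2-/- MEF (0.21). The shares higher, against 11.6% and 12.8% of all genes, were near the background, and 19.2% and 18.3% of all genes were lower. Flna, which crosslinks actin and binds integrin tails, went from 69.5 to 136 RPKM in Hmga2+/+ MEF and, in Hmga2-/- MEF, 87.2 to 175 RPKM. Actn1, an actin crosslinker, went from 73.1 to 119 RPKM and from 86.3 to 180 RPKM. Rhoa, the GTPase of stress fibre formation, was at 134 and 159 RPKM in Hmga2+/+ and at 176 and 173 RPKM in Hmga2-/- MEF. Tns1, a tensin of fibrillar adhesions, went the other way, from 9.40 to 3.99 RPKM and from 9.10 to 4.70 RPKM.

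Of 20 matrix proteins that bind or are built on fibronectin, 9 were at least 1.5-fold higher in each genotype, against 11.6% of all genes in Hmga2+/+ and 12.8% in Hmga2-/- MEF, and 5 were lower in each, near the 19.2% and 18.3% of all genes, with median log2 ratios of 0.33 in Hmga2+/+ and 0.49 in Hmga2-/- MEF. Tnc, the glycoprotein tenascin C, went from 24.7 to 149 RPKM in Hmga2+/+ MEF and, in Hmga2-/- MEF, 27.2 to 166 RPKM. Col1a1, a chain of type I collagen, was at 325 and 363 RPKM in Hmga2+/+ and at 272 and 363 RPKM in Hmga2-/- MEF. Col3a1, type III collagen, was at 287 and 176 RPKM and at 237 and 141 RPKM, lower with TGFB1 in both. Fbln1, the fibronectin-binding fibulin 1, went from 27.0 to 10.5 RPKM and from 22.7 to 10.7 RPKM. Fn1 in Ctrl was above every named matrix gene, and its log2 ratio lay between those of Col1a1 and Tnc in each genotype.

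Among 18 proteases that cut fibronectin and their inhibitors, 7 were at least 1.5-fold higher in each genotype, against 11.6% and 12.8% of all genes in Hmga2+/+ and Hmga2-/- MEF, and 3 were lower in each, near the 19.2% and 18.3% of all genes, with median log2 ratios of 0.29 and 0.28. Mmp14, a membrane-bound protease that cuts fibronectin at the cell surface, went from 193 to 121 RPKM in Hmga2+/+ MEF and, in Hmga2-/- MEF, 211 to 131 RPKM. Timp2, an inhibitor of such proteases, went from 133 to 62.0 RPKM and from 150 to 69.2 RPKM. Mmp14 and Timp2 were thus lower with TGFB1 in both genotypes, where Fn1 was higher. They are among the 3 lower genes and do not stand for the list, of which 7 were higher in each genotype.

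A list of 18 splicing factors, kinases of such factors included, was drawn up for exons such as EDA and EDB. Whether each acts on these exons was not tested. In Hmga2+/+ MEF 5 were at least 1.5-fold higher and 0 lower, against 11.6% and 19.2% of all genes. In Hmga2-/- MEF 3 were higher and 1 lower, against 12.8% and 18.3% of all genes. Of the 15 that reached 1 RPKM, 2 were higher in Hmga2+/+ MEF and 1 in Hmga2-/- MEF, against 12.1% and 13.8% of genes at that level, with median log2 ratios of 0.17 and 0.22. Srsf5, of the serine and arginine rich factors that promote exon inclusion, was at 58.2 and 44.8 RPKM in Hmga2+/+ and at 51.5 and 49.9 RPKM in Hmga2-/- MEF. Khdrbs1, the RNA-binding protein Sam68, was at 51.8 and 45.7 RPKM and at 51.3 and 48.1 RPKM. Mbnl1, a muscleblind factor, had the highest ratio in Hmga2+/+ MEF where both libraries reached 1 RPKM, from 36.7 to 60.1 RPKM, and went from 33.5 to 50.4 RPKM in Hmga2-/- MEF. Clk1, a kinase of such factors, was at 25.8 and 17.2 RPKM and at 19.9 and 16.4 RPKM. Esrp1, an epithelial splicing factor, was at 0.004 RPKM or less in all 4 libraries and was looked up after its values were seen. It was nevertheless among the 5 counted as higher in Hmga2+/+ MEF and was the 1 counted as lower in Hmga2-/- MEF.

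Textbook TGFB1 targets gave the largest medians. Of 14 found in the table, 11 were at least 1.5-fold higher in each genotype, against 11.6% and 12.8% of all genes in Hmga2+/+ and Hmga2-/- MEF, and 1 was lower, against 19.2% and 18.3%, with median log2 ratios of 1.77 and 1.76. Fn1 was below these medians in both genotypes. The 1 lower gene was Tgfbi, a secreted matrix protein, from 23.0 to 14.2 RPKM in Hmga2+/+ MEF and, in Hmga2-/- MEF, 29.2 to 14.6 RPKM. Col1a2, the other chain of type I collagen, was at 231 and 212 RPKM and at 185 and 190 RPKM, and was thus within the fold in each. Between genotypes, of these 14 genes, 5 were at least 1.5-fold higher in Hmga2-/- than in Hmga2+/+ MEF in Ctrl and 5 in TGFB1, against 8.36% and 9.30% of all genes, and 0 were lower. Fn1, at log2 ratios of -0.20 and -0.09, was within the fold in both. In the other lists fewer genes passed the fold between genotypes than between treatments. In Ctrl, 1 receptor, 1 adaptor, 1 matrix protein, 4 proteases or inhibitors and 3 splicing factors were higher in Hmga2-/- MEF, and 1 receptor and 1 protease or inhibitor were lower, beside 8.36% and 8.76% of all genes. In TGFB1, 1 receptor, 2 adaptors, 2 matrix proteins, 3 proteases or inhibitors and 1 splicing factor were higher, and 3 receptors and 1 splicing factor were lower, beside 9.30% and 8.20% of all genes. Counts this small in lists of 14 to 20 genes are not results about the lists.

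**Figure D5:**
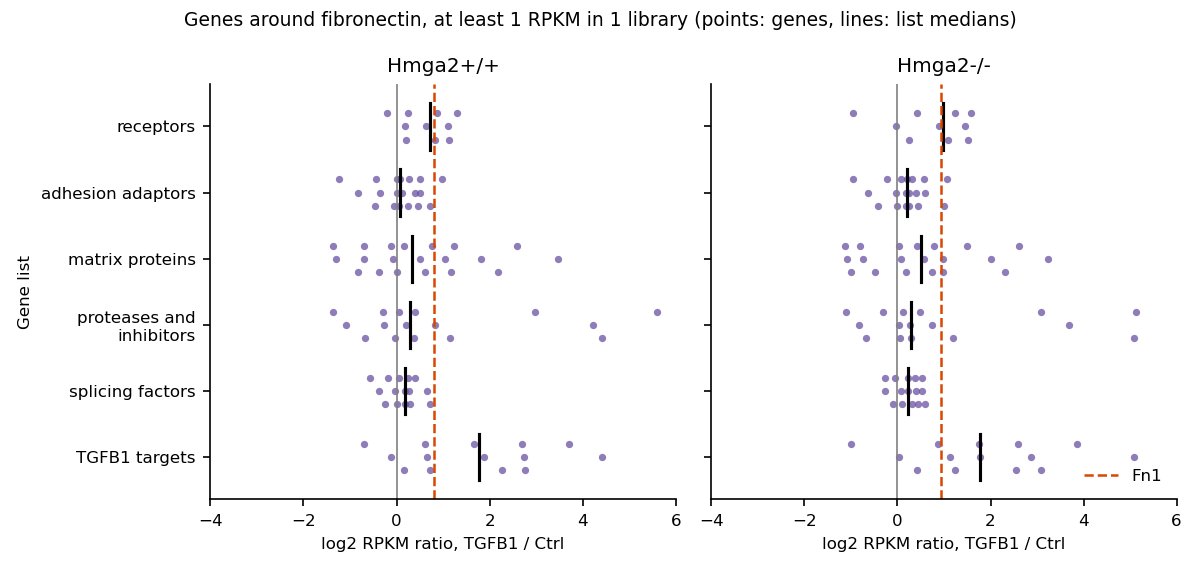
log2 RPKM ratio, TGFB1 over Ctrl (x axis), of the listed genes that reached 1 RPKM in any library, by list (y axis), in Hmga2+/+ (left) and Hmga2-/- (right) MEF. Each point is a gene, black lines are list medians and the dashed line is Fn1 at 0.81 and 0.93, which lies near the median of the receptors (0.73 and 0.99), above those of the adaptors, matrix proteins, proteases and splicing factors, and below that of the TGFB1 targets (1.77 and 1.76).

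The genes whose pattern over the 4 libraries was most like that of Fn1 were sought among 3557 other genes with at least 10 RPKM in every library, by the Euclidean distance between log2 RPKM centred per gene. The 5 nearest were Atf5 at 0.098, Yars at 0.103, P4ha1 at 0.126, Hyou1 at 0.130 and Ivns1abp at 0.131. Atf5 encodes a transcription factor, Yars the tyrosyl-tRNA synthetase, P4ha1 a subunit of the enzyme that hydroxylates collagen prolines, Hyou1 a chaperone of the endoplasmic reticulum and Ivns1abp a protein that binds a viral protein and actin. All 5 were higher with TGFB1, by log2 ratios of 0.64 to 0.88 in Hmga2+/+ and 0.83 to 1.07 in Hmga2-/- MEF. P4ha1, for example, was at 40.5, 62.9, 32.8 and 63.8 RPKM in Hmga2+/+ Ctrl, Hmga2+/+ TGFB1, Hmga2-/- Ctrl and Hmga2-/- TGFB1. A likeness over 4 libraries is a description, since many genes can share such a pattern.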

How the data were processed

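RNA of MEF was sequenced, with 1 library for each of the 4 combinations of Hmga2 genotype and treatment, as single-end reads from a strand-specific kit. The authors trimmed reads with Trimmomatic, aligned them to mm10 with HISAT2 2.1.0, made HOMER tag directories and deposited RPKM for UCSC known genes, with the length of each transcript in bases. Per the file headers, exons were the counted feature, whereas the methods name genes. The methods mention duplicates, and 1 column per condition was deposited, so whether duplicates were pooled is unknown. All 4 sample columns were used.

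Depth was derived from RPKM and length, as the number of mapped reads that turns low RPKM of transcripts shorter than 600 bases into whole numbers. With it, 100% of 1295 to 1319 values per library lay within 0.1 of a whole read. Reads of Fn1 were derived from it, and ratios of reads were given exact 95% intervals. Whether the reads of Fn1 are whole could not be checked, because they are too many for the precision of the depth. A setting that required this within 0.3 was therefore not applied. 0 RPKM was set to 0.001 and a fold of 1.5 was used, as in the methods. Exon structures came from GENCODE vM21, where the length in the table equals the annotated bases less 2 per exon plus 1, for all 10 transcripts. Genes are represented by the transcript with the longest gene body. From each list at most 4 genes are named, the 2 highest in Hmga2+/+ Ctrl and the largest ratio in each direction in Hmga2+/+ MEF where both libraries reached 1 RPKM, and others are named as stated. A gene that the rule selects is not reported here. Ctgf and Cyr61 were listed too and are in the annotation as Ccn2 and Ccn1. The members and lists were chosen with earlier results of these data known. Alternatives changed the transcript, the scaling, the pseudocount, the filter and the fold. Steps were tested on simulated data. Python 3.11.15, numpy 2.4.6, pandas 2.3.3, scipy 1.17.1 and matplotlib 3.10.9 were used.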

Additional observations from a re-analysis of the deposited data

How the results depend on the processing

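Every log2 ratio of Fn1 kept its sign under all alternatives that were run, which changed the transcript, the scaling of libraries and the pseudocount. Beside the reported 465, 818, 404 and 769 RPKM in Hmga2+/+ Ctrl, Hmga2+/+ TGFB1, Hmga2-/- Ctrl and Hmga2-/- TGFB1, the level of Fn1 was 488, 859, 423 and 807 RPKM as the median of full-length transcripts, 448, 838, 397 and 785 RPKM under median-ratio scaling, and 469, 813, 411 and 755 RPKM under upper-quartile scaling. It was 365, 576, 304 and 550 RPKM for the transcript of the first exons and 498, 877, 432 and 833 RPKM for that of the shared bases, both chosen after seeing the data. The log2 ratio with TGFB1 was 0.91, 0.79 and 0.66 in Hmga2+/+ MEF under median-ratio scaling, upper-quartile scaling and the first exons, and 0.98, 0.88 and 0.86 in Hmga2-/- MEF, or 0.95 on the shared bases. Between genotypes in Ctrl it was -0.17, -0.19 and -0.26 in the same order. In TGFB1 it was -0.11 under upper-quartile scaling, -0.067 on the first exons and -0.074 on the shared bases. The changes under scaling follow from the factors applied to whole libraries. On the first exons, the intervals lay apart from those of the longest transcript except for the genotype ratio in TGFB1. There they were -0.086 to -0.048 and -0.095 to -0.082. On the shared bases, they lay apart for the genotype ratio in TGFB1 and overlapped for the ratio with TGFB1 in Hmga2-/- MEF. Because these transcripts share reads with the longest one, neither an overlap of intervals nor its absence tests a difference between them. The cause of the changes between transcripts was not tested.

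Relative to the longest transcript in place of the shared bases, EDB was at 0.124, -0.0495 and 0.114 in Hmga2+/+ Ctrl, Hmga2+/+ TGFB1 and Hmga2-/- TGFB1, the 5′ part of V at 0.383 in Hmga2-/- TGFB1 and the 3′ part at 0.658 in Hmga2+/+ TGFB1. These follow from the lower density of the longest transcript. Single pairs in place of their mean were an alternative chosen after seeing the data. For EDA they gave 0.345, 0.510 and 0.387 in Hmga2+/+ Ctrl, 0.530, 0.362 and 0.425 in Hmga2+/+ TGFB1, 0.325, 0.145 and 0.375 in Hmga2-/- Ctrl, and 0.321, 0.322 and 0.104 in Hmga2-/- TGFB1. For the 5′ part of V they gave -0.174 and 0.415 in Hmga2+/+ Ctrl, 0.940 and 0.341 in Hmga2+/+ TGFB1, and 0.359 and -0.282 in Hmga2-/- Ctrl, so that the sign turned in both Ctrl libraries. For the 3′ part they gave 0.792 and 0.676 in Hmga2+/+ Ctrl, 0.584 and 0.643 in Hmga2+/+ TGFB1, 0.654 and 0.870 in Hmga2-/- Ctrl, and 0.621 and 0.417 in Hmga2-/- TGFB1.

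Of the 99 listed genes, 39 were higher and 12 lower with TGFB1 in Hmga2+/+ MEF and 39 and 14 in Hmga2-/- MEF, beside 11.6% and 19.2%, and 12.8% and 18.3%, of all genes. At 2-fold, 25 were higher and 7 lower in Hmga2+/+ and 7 lower in Hmga2-/- MEF, where a pseudocount of 1 RPKM gave 9 lower. Between genotypes, 14 were higher and 2 lower in Hmga2-/- Ctrl, beside 8.36% and 8.76% of all genes. These counts became 4 and 0 at 2-fold, 9 and 1 among genes of at least 1 RPKM, and 6 and 0 with the pseudocount. In TGFB1, 13 were higher and 4 lower, beside 9.30% and 8.20% of all genes. These became 6 and 3 at 2-fold, 11 and 1 among genes of at least 1 RPKM, and 9 and 1 with the pseudocount. The shares of all genes at 2-fold, with the pseudocount and, between genotypes, at 1 RPKM are not given here. The counts under these settings are therefore not results about the lists. Of the 5 genes nearest to Fn1, 4 were also among the nearest 5 under median-ratio scaling. Ranks moved by at most 1 place. No paired analysis was possible because each condition has 1 library. Counting error is small for Fn1, so depth is not what limits these comparisons, whereas the spread between cultures is unknown.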
